A study of Mus musculus with 6 samples.

Results

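The dystrophin-glycoprotein complex was followed in C2C12, mouse muscle precursor cells that can be made to form myotubes in culture, after knockdown of huntingtin (Htt). Its members here are 8 genes given by name, Dmd, Dag1, Sgca, Sgcb, Sgcd, Sspn, Sntb1 and Dtna, out of 22180 genes with a probe set of a single symbol. Each gene was read from its brightest probe set, by the mean of all 6 arrays, and all 8 were measured. The study compared 3 samples transfected with a pool of siRNAs against Htt, which the labels call HTT KO, with 3 transfected with scramble siRNA as the negative control. All 6 arrays are of the same cell line and of transfected cells, and no untransfected sample is analysed here. Nothing in the labels ties the replicates to separate cultures, so p-values reflect the spread of these samples alone, and that spread may be technical. How long the siRNA acted, and whether the cells were dividing or differentiating when collected, is not stated in what was available here.

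The complex spans the muscle surface membrane. Dystrophin binds actin on the inside and dystroglycan in the membrane, and dystroglycan holds laminin outside, so that the cytoskeleton is tied to the basement membrane. The sarcoglycans and sarcospan form a membrane subcomplex beside dystroglycan, while syntrophins and dystrobrevins are cytoplasmic adaptors that bring signalling proteins to it. Loss of dystrophin causes Duchenne muscular dystrophy, and loss of alpha-, beta- or delta-sarcoglycan causes limb-girdle muscular dystrophy.

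Values are deposited log2 expression after RMA, and differences are Htt siRNA minus scramble on that log2 scale with limma's moderated standard error (SE). Values were given per probe set, so a level is compared between groups and not between genes. Htt itself was lower in every knockdown array, at 4.49, 4.47 and 4.65 against 5.59, 5.60 and 5.72 with scramble. The 6 myoblast markers had means over the 6 arrays between 6.25 and 10.20, above the median of all gene means (2.95). The 10.20 is that of Des, which is also on the smooth muscle list but was counted as a myoblast marker only. Without Des, markers of other cell types reached 7.58, so this is a rough guide and does not identify the cells. Of 26 measured markers of fibroblasts, adipocytes, Schwann cells, smooth muscle, immune and endothelial cells, without Des, 20 had means below that median. At an unadjusted p under 0.05 in limma, 2 of these were higher (Cidec and Actg2) and 2 lower (Pdgfra and Cd68), and 2 of the 6 myoblast markers were higher. Limma called 0 of 22180 genes (0%) at an adjusted p under 0.05, while at an unadjusted p under 0.05 there were 1269 higher (5.72%) and 1140 lower (5.14%), or 911 and 1465 with each array centred on its median. None of the 8 members passed over all genes, and their differences are therefore given as values. At the unadjusted threshold 5 of the 8 members were higher and 0 lower.

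The members' differences were uneven. Sgca and Sgcb had the largest values, Dag1, Sntb1 and Dtna had smaller positive ones, and Dmd, Sgcd and Sspn had values close to 0. In 4 of the 8 (Sgca, Sgcb, Dag1 and Dtna) all Htt siRNA arrays lay above all scramble arrays, against 10.1% of all genes, and in 0 all lay below, against 5.91%. The median difference over the 8 members was 0.30, and over all genes it was 0.03. Since the members were named with earlier results of these data known, these shares describe them and are not a test. In RNA from whole cultures, a larger share of cells with a transcript and more transcript per cell cannot be told apart.

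**Figure D1:**
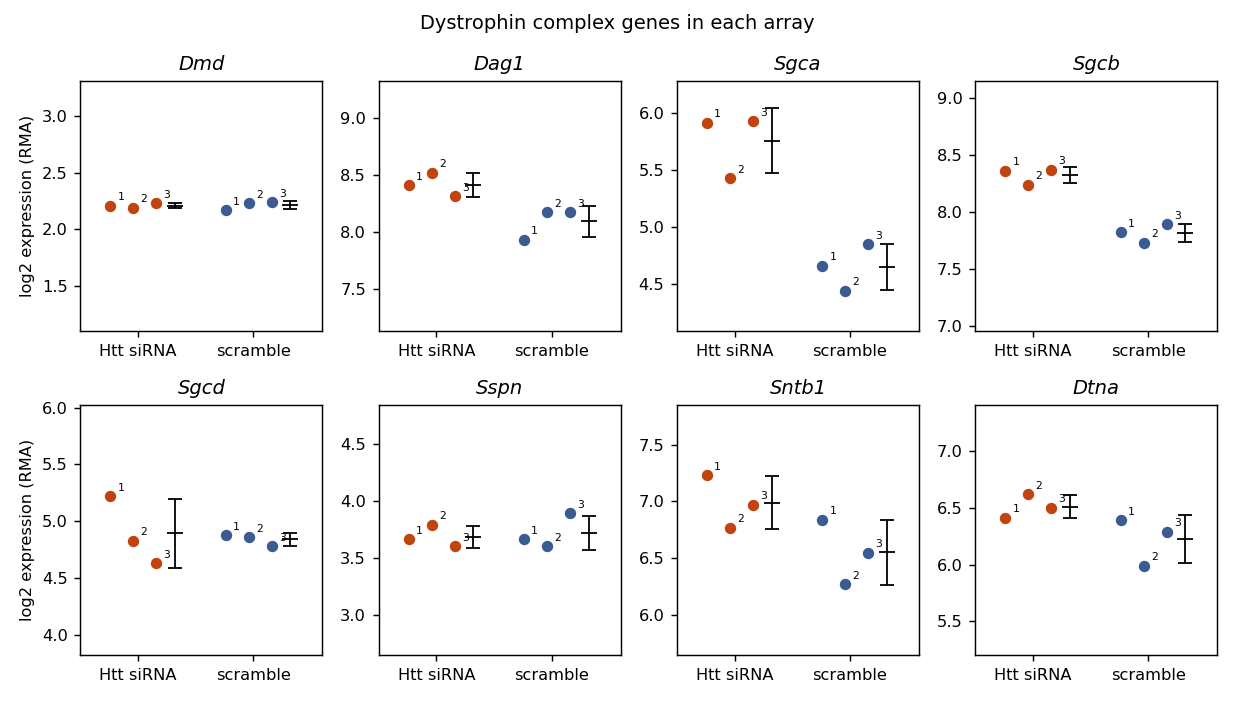
Log2 expression (RMA, vertical axis) of the 8 complex genes in each array, with Htt siRNA arrays left and scramble arrays right in each panel; small numbers are replicates and the bar beside the points is the mean with its SD (n = 3). Every panel spans the same log2 range; Sgca and Sgcb show the widest gaps between groups (0.575 and 0.351 log2 units), and the Dmd, Sgcd and Sspn groups overlap.

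The sarcoglycans differed among themselves. Sgca encodes alpha-sarcoglycan, the subunit restricted to striated muscle. It stood at 5.92, 5.43 and 5.93 in the Htt siRNA arrays, against 4.66, 4.44 and 4.85 in the scramble arrays. The lowest knockdown array, replicate 2, was still 0.575 above the highest scramble array. The mean was 5.758 ± 0.285 with Htt siRNA and 4.65 ± 0.209 with scramble (SD, n = 3 each), a difference of 1.108 ± 0.165 or 2.16-fold (95% confidence interval 1.65 to 2.81). Its limma p was 0.000177, the 21st smallest of all genes, and its adjusted p of 0.169 did not pass. By size, 24 genes (0.108% of all) had a larger positive difference.

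Sgcb encodes beta-sarcoglycan, which also occurs outside striated muscle. Its values were 8.36, 8.24 and 8.37 with Htt siRNA, against 7.82, 7.73 and 7.89 with scramble. Arrays of the same group lay close together, and the groups were 0.351 apart at their closest. The difference was 0.51 ± 0.09, or 1.43-fold (95% confidence interval 1.24 to 1.64; adjusted p = 0.181 in limma). Sgca and Sgcb passed the adjusted threshold once Htt siRNA replicate 2 was left out, with differences of 1.27 ± 0.13 (adjusted p = 0.00807) and 0.55 ± 0.10 (adjusted p = 0.038), and 540 genes passed in that fit. Replicate 2 was the lowest knockdown array of both genes, so leaving it out widens their differences. Without any other single array neither passed, with adjusted p of 0.25 to 0.62 for Sgca and 0.32 to 0.62 for Sgcb in limma.

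Sgcd encodes delta-sarcoglycan, which pairs closely with beta-sarcoglycan during assembly. Its values of 5.22, 4.83 and 4.63 with Htt siRNA lay on both sides of 4.88, 4.86 and 4.78 with scramble. Replicate 1 was the highest and replicate 3 the lowest of all 6 arrays, both from the knockdown group. The difference of 0.05 ± 0.15 had a 95% confidence interval of -0.29 to 0.39, and without Htt siRNA replicate 1 it was -0.11. Of the paralogs, Sgce, the broadly expressed counterpart of Sgca, had 6.60, 6.66 and 6.56 with Htt siRNA against 6.44, 6.31 and 6.49 with scramble. These groups did not overlap, and the difference was 0.20 ± 0.09 (adjusted p = 0.473 in limma). Sgcz, zeta-sarcoglycan, averaged 2.33 over the arrays, below the median gene, with a difference of -0.01 ± 0.09.

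RefSeq promoter windows (GRCm38.p6, 250 bases before to 50 after an annotated start) were found for 6 of the 8 members, 9 windows in all. The E-box, CANNTG on either strand, is the letter pattern bound by myogenin, MyoD and other basic helix-loop-helix factors. It occurred in 72.3% of all 32817 windows of this length, so a match is common; a match describes letters in the window and is no binding site. The window of Sgca held 2 matches, beginning at positions -86 and 27 from the start, and that of Sgcb held 0. The window of Sgcd held 2, the 1st Dmd window 3 and the 2nd 0. In Dag1 both overlapping windows held the same single match, and in Sspn the windows held 0 and 1. Neither CAGCTG (16.3% of all windows) nor CACCTG (20.2%) occurred in any of the 9. A match of the MEF2 motif, found in 3.2% of all windows, and one of the CArG box, the motif of serum response factor found in 1.6%, occurred in the 1st Dmd window alone, at positions -244 and -98. The windows of the 2 members with the largest differences and of Dmd are given here with E-boxes in capitals, Sgca at chr11:94976278-94976577 (minus strand), Sgcb at chr5:73647688-73647987 (minus strand) and Dmd at chrX:82948620-82948919 (plus strand), each 5′ to 3′ on the gene's strand.
Sgca: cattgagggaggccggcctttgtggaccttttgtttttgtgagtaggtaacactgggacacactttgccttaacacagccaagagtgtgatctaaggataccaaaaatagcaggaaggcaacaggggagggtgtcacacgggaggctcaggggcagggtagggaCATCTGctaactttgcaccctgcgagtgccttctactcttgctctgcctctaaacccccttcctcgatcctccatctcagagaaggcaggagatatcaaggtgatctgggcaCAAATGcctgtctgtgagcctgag
Sgcb: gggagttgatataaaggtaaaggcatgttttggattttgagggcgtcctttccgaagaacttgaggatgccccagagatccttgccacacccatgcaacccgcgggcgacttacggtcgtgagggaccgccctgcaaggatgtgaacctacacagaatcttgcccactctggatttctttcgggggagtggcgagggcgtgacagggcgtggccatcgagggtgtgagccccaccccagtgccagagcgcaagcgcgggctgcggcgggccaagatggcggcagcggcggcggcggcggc
Dmd: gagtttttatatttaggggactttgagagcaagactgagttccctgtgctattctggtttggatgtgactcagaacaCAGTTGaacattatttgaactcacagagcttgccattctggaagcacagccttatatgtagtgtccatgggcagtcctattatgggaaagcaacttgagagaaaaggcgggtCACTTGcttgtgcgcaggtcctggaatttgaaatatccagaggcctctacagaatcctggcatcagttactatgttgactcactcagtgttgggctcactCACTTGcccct

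Dystrophin itself was dim. Dmd had 2.21, 2.19 and 2.23 with Htt siRNA, against 2.17, 2.23 and 2.24 with scramble, by its only probe set of a single symbol. The groups overlapped, and 27.0% of genes had a mean as low or lower. The difference was -0.001 ± 0.077, with a 95% confidence interval of -0.18 to 0.18. RMA compresses weak signals, and the table holds no detection calls, so a low level of dystrophin RNA cannot be told from none here. Utrophin (Utrn), the dystrophin paralog that many cells carry and that fetal muscle uses, stood at 7.60, 7.49 and 7.57 with Htt siRNA against 7.45, 6.94 and 7.57 with scramble. Scramble replicate 2 was low, the other arrays lay close together, and the difference was 0.23 ± 0.16 (adjusted p = 0.635 in limma). Drp2, a shorter dystrophin relative known from Schwann cells, had a difference of 0.38 ± 0.12 (adjusted p = 0.387 in limma) and was below 0.05 before adjustment.

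Dag1 encodes the precursor that is cut into alpha- and beta-dystroglycan, the laminin receptor of the complex and its membrane anchor. It stood at 8.41, 8.52 and 8.31 with Htt siRNA, against 7.93, 8.17 and 8.17 with scramble. The groups were 0.13 apart at their closest, and replicate 2 was the highest knockdown array here, unlike in Sgca and Sgcb. The difference was 0.32 ± 0.10, or 1.25-fold (95% confidence interval 1.06 to 1.48; adjusted p = 0.389 in limma). Alpha-dystroglycan binds laminin only after its sugar chain has been built, and 14 of 18 listed enzymes of that pathway were measured. At the unadjusted threshold 1 was higher and 0 lower, against 5.72% and 5.14% of all genes, and their median difference was 0.07. The one was Rxylt1, a xylosyltransferase of the chain, at 5.20, 5.02 and 5.16 with Htt siRNA against 4.92, 4.90 and 4.86 with scramble, a difference of 0.23 ± 0.09 (adjusted p = 0.416 in limma).

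Outside the cell, a few matrix genes had larger differences than most members. Lama2 encodes the alpha chain of the laminin of muscle basement membrane, the main ligand of dystroglycan there. Its values were 7.23, 6.83 and 7.14 with Htt siRNA, against 6.56, 5.82 and 6.44 with scramble, without overlap. The difference was 0.79 ± 0.20, or 1.73-fold (adjusted p = 0.314 in limma). Lamb2, a beta chain found at synapses of muscle, had a difference of 0.47 ± 0.14 (adjusted p = 0.382), and Hspg2, the matrix proteoglycan perlecan, which dystroglycan also binds, one of 0.34 ± 0.14 (adjusted p = 0.447). These 3 of 10 matrix ligands were higher at the unadjusted threshold, against 5.72% of all genes, and 0 were lower, against 5.14%. The median over the list was 0.17. The count describes the list and is not a test. Agrn, the ligand agrin, had 0.28 ± 0.15 and Lamc1, the common gamma chain, 0.06 ± 0.08, and neither reached that threshold.

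Sspn encodes sarcospan, a tetraspanin-like membrane protein that sits with the sarcoglycans. It stood at 3.66, 3.79 and 3.60 with Htt siRNA, against 3.66, 3.60 and 3.89 with scramble. The groups overlapped, and the difference was -0.04 ± 0.11 (95% confidence interval -0.28 to 0.21). A further, dimmer probe set of Sspn gave 0.04, so its sign was not fixed.

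The cytoplasmic adaptors lay between Sgca or Sgcb and the members near 0. Sntb1 encodes beta-1-syntrophin, which binds dystrophin and dystrobrevin and carries a PDZ domain for signalling proteins. Its values were 7.23, 6.77 and 6.97 with Htt siRNA, against 6.84, 6.27 and 6.55 with scramble. Scramble replicate 1 lay above Htt siRNA replicate 2, so the groups overlapped, and the difference was 0.435 ± 0.170 (1.35-fold, adjusted p = 0.432 in limma). Sntb2, beta-2-syntrophin, had 6.18, 5.63 and 5.75 with Htt siRNA against 6.03, 5.79 and 5.88 with scramble, with a difference of -0.04 ± 0.15.

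Dtna encodes alpha-dystrobrevin, which binds dystrophin and syntrophins. It stood at 6.41, 6.62 and 6.50 with Htt siRNA, against 6.39, 5.99 and 6.29 with scramble. Only 0.02 separated the lowest knockdown array from the highest scramble array. The difference of 0.29 ± 0.12 (1.22-fold) was just inside the unadjusted threshold and had an adjusted p of 0.46 in limma. Without scramble replicate 2 it was 0.17. Dtnb, beta-dystrobrevin, had a difference of -0.08 ± 0.15. Among signalling partners, Nos1, neuronal nitric oxide synthase, and Cav3, muscle caveolin, averaged 2.04 and 2.37 over the arrays, below the median gene, with differences of 0.00 ± 0.13 and 0.13 ± 0.10. Of the 8 measured paralogs of the core, 1 (Drp2) was higher at the unadjusted threshold, and of 4 signalling partners 0 were. Of 9 genes listed as linkers or neighbours of the complex, 0 were. That mixed list holds Plec and Vcl but also Mark2, Dysf, Itgb1 and Itga7, the last of which is also a myoblast marker here. The medians were 0.12, 0.08 and 0.15, in that order. Over all 45 measured paralogs, partners, enzymes and ligands, 5 were higher at the unadjusted threshold and 0 lower, and the median difference was 0.12. Over all genes 5.72% were higher and 5.14% lower at that threshold, with a median of 0.03. Counts of 0 or 1 in the shorter lists are not read as results.

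**Figure D2:**
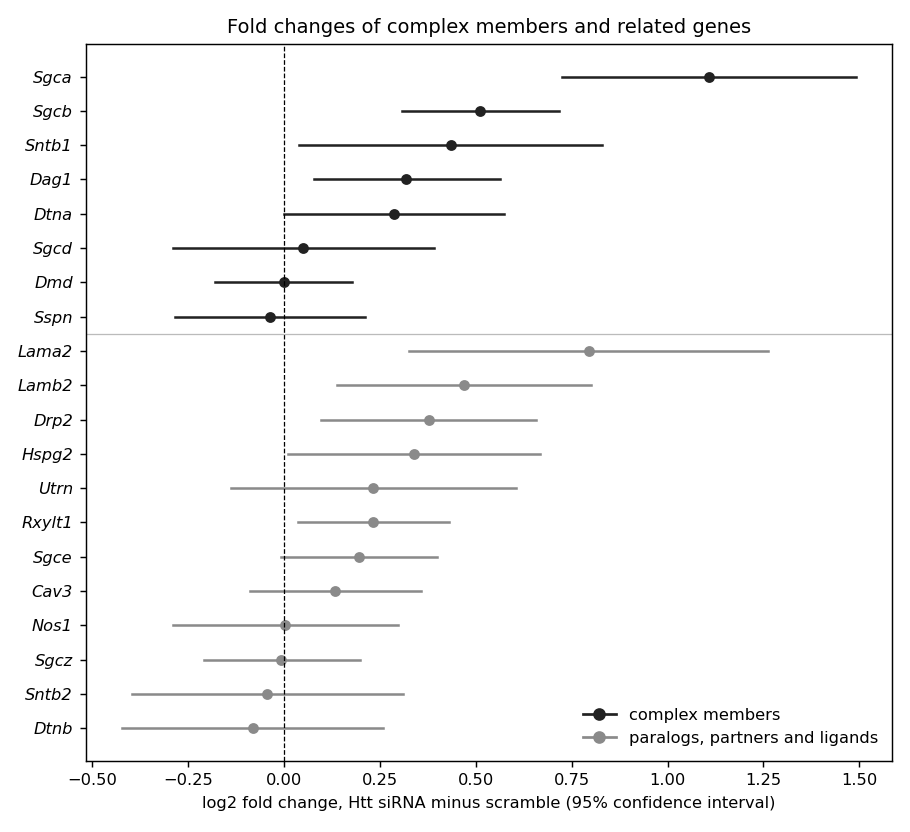
Log2 fold change of Htt siRNA minus scramble with its 95% confidence interval from limma (horizontal axis), for the 8 members in black and for paralogs, partners and ligands in grey. Sgca (1.11) lies furthest to the right, Lama2 (0.79) lies furthest right of the 12 related genes drawn, which do not include all 45, and intervals of Dmd, Sgcd and Sspn span 0.

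Whether a member and its paralog differed unequally was asked of the log2 ratio of the pair within each array. The ratio of Sgca to Sgce was -0.68, -1.23 and -0.64 with Htt siRNA, against -1.78, -1.87 and -1.63 with scramble. All knockdown arrays lay above all scramble arrays, and the ratio differed by 0.91 (1.88-fold). For Sntb1 to Sntb2 the ratio was 1.05, 1.14 and 1.22 with Htt siRNA against 0.81, 0.49 and 0.68 with scramble, again without overlap, and differed by 0.48 (1.39-fold). Each had an exact two-sided permutation p of 0.1, the smallest that 3 against 3 allows, so this test could not pass 0.05. The Dtna to Dtnb ratio differed by 0.37, with an exact permutation p of 0.2 and overlapping groups. Adjusted over the 4 pairs computed, every p was 0.2. The remaining pair, Dmd to Utrn, is not read, because Dmd was too dim for its ratio to reflect more than the values of Utrn.

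The members were set beside markers of muscle differentiation, because these separated the groups widely. Of 11 measured markers, all 11 were higher at the unadjusted threshold in limma, against 5.72% of all genes, and 0 passed adjustment. This list and those of S phase and stress genes below were chosen with results of these data known. Their counts describe them and are not a test. Their mean level per array was 5.50, 4.46 and 5.34 with Htt siRNA and 3.74, 3.29 and 3.90 with scramble. In all 11, replicate 2 was the lowest knockdown array, as it was in Sgca, Sgcb and Sntb1 but not in Dag1, Sgcd, Sspn or Dtna. In Dmd it was the lowest as well, at a dim level where all arrays were alike. Of 22 S phase genes, 20 were lower at the unadjusted threshold, against 5.14% of all genes. Their mean level was 5.31, 6.62 and 5.58 with Htt siRNA against 6.48, 7.08 and 6.85 with scramble. Of 29 stress genes, 0 passed the unadjusted threshold in limma in either direction. Their mean level was 8.27, 6.59 and 8.29 with Htt siRNA against 8.33, 6.85 and 7.16 with scramble, so that 1 scramble array lay with the higher knockdown arrays. Replicate 2 was also the lowest knockdown array in all 29 stress genes and the highest in all 22 S phase genes. Its low place is therefore not particular to the differentiation markers. With the stress level as a covariate, Sgca had a difference of 1.05 ± 0.13 (adjusted p = 0.0301 in limma) and Sgcb one of 0.50 ± 0.09 (adjusted p = 0.0746). In that fit 81 genes passed. Its covariate comes from a list chosen with results of these data known, so its p-values only describe these arrays. The part of differentiation state and of S phase in the members' values was not tested.

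**Figure D3:**
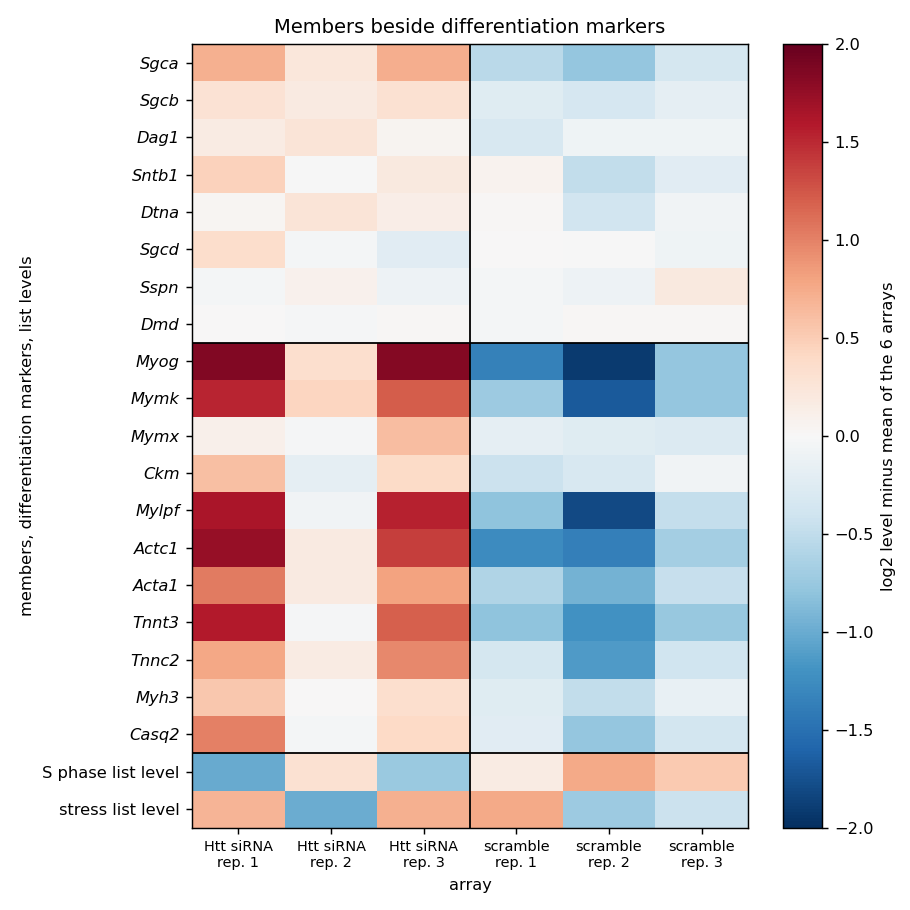
Log2 level minus the mean of the 6 arrays (colour scale, red high and blue low) for the 8 members, 11 differentiation markers and the mean levels of the S phase and stress lists (rows), in Htt siRNA arrays left and scramble arrays right (columns). Sgca runs with Myog, with 0.716, 0.225 and 0.722 in the knockdown arrays and -0.55, -0.77 and -0.35 in the scramble arrays, while Dmd is flat.

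The genes most like a member over the 6 arrays were picked by Pearson's r among 10450 named genes above the median level. With 6 arrays in 2 separated groups and so many genes, high values arise easily, so r only ranks likeness here. For Sgca the most like gene was Myog, encoding myogenin, which starts terminal differentiation (r = 0.998; its difference was 2.68 ± 0.44). Next came skeletal actin Acta1 (r = 0.993) and then Sgcb (r = 0.992). For Sgcb the nearest were the tetraspanin gene Cd82 (r = 0.997; 0.45 ± 0.09), Sgca, and C1qtnf3, encoding a secreted protein of the adiponectin family (r = 0.990; 1.91 ± 0.17). Dag1 was most like Tmem130, Il27 and the chemokine receptor gene Cxcr4 (r = 0.992, 0.986 and 0.985). Sntb1 was most like Ctns, the lysosomal cystine transporter, Sec23a, a coat protein of transport vesicles, and Amn1 (r = 0.994, 0.993 and 0.992). For Dtna these were Psap, the precursor of lysosomal saposins, Pigp and Dhx35 (r = 0.993, 0.992 and 0.987). For Sgcd these were Fbxo8, Ufd1 and Bod1l (r = 0.993, 0.986 and 0.969), and for Sspn Wdr26, Wwc2 and Fryl (r = 0.984, 0.982 and 0.981). None is given for Dmd, whose probe set was dim and nearly constant.

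**Figure D4:**
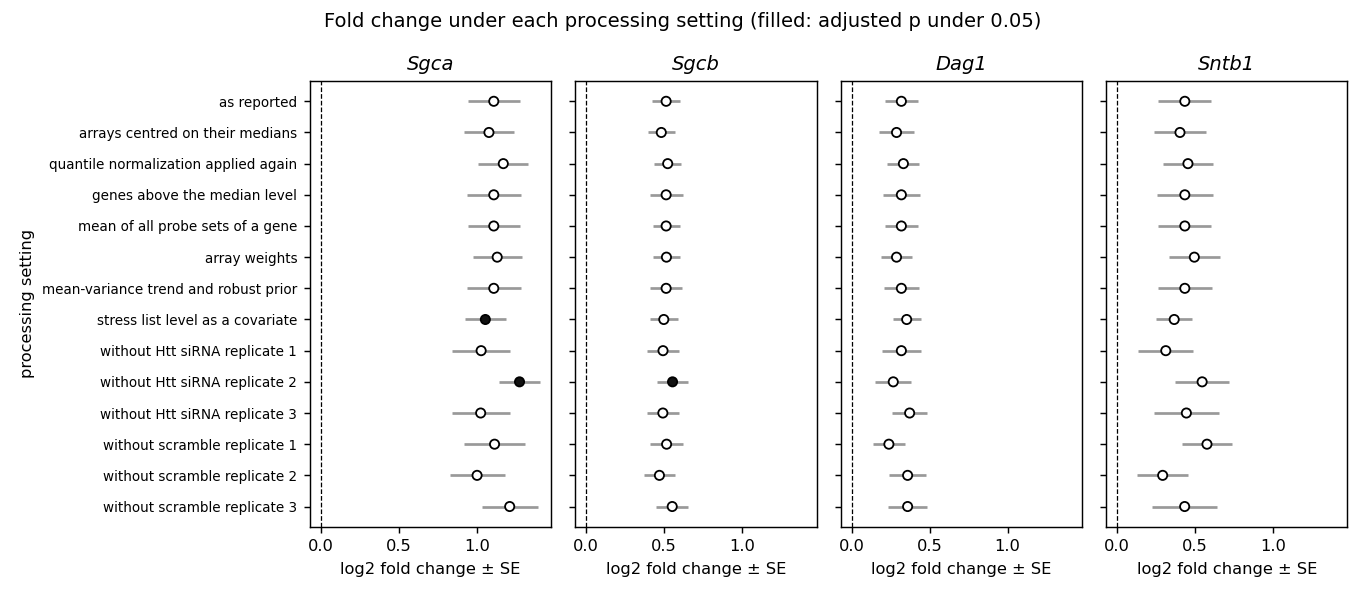
Log2 fold change with its SE (horizontal axis) for Sgca, Sgcb, Dag1 and Sntb1 as reported and under 13 of the 14 other processing settings (rows; the fit with the replicate number as a block is not drawn); filled points have an adjusted p under 0.05. All points lie right of 0, and of the points drawn the filled ones are Sgca with the stress covariate and Sgca and Sgcb without Htt siRNA replicate 2.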

How the data were processed

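Total RNA of 6 samples was measured on Affymetrix arrays, 1 array per sample. The authors deposited log2 values for 41345 probe sets; the submitters' processing notes name RMA and affy, without versions. RMA subtracts background, equalises array distributions and summarises probes, so the values hold nothing about how much RNA a cell had. The platform annotation gave 23521 probe sets 1 symbol and 1814 several; 23328 of the former matched RefSeq gene identifiers. The brightest probe set stood for each of 22180 genes.

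Groups were compared with limma 3.58.1 (lmFit and eBayes) in R 4.3.3, two-sided, with Benjamini-Hochberg adjustment over all genes and a threshold of 0.05; the script was tested on simulated data. Ratios were compared by exact permutation over samples. Some genes of the lists and 1 planned pair are not reported here. Genes named are the members, a set list of paralogs and partners, related genes with an unadjusted p under 0.05, and the 3 most correlated genes per member (not given for Dmd, which was dim). The members and lists were chosen with earlier results of these data known. The alternatives were centring, repeated quantile normalization, a filter on dim genes, averaged probe sets, array weights, a variance trend, a replicate block, a stress covariate and leaving out each array. Promoter sequences are RefSeq's. Permutation used scipy 1.17.1, under Python 3.11.15. The number of arrays limits the precision.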

Additional observations from a re-analysis of the deposited data

How the results depend on the processing

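Dag1, Sgca, Sgcb, Sntb1 and Dtna had positive differences under all 14 alternatives, and of the members only Sgca and Sgcb passed the adjusted threshold in any. Sgca (1.11 as reported) passed with the stress covariate (1.05) and without Htt siRNA replicate 2, and ranged from 1.00 to 1.27 when 1 array was left out; Sgcb ranged from 0.47 to 0.55. Dmd was 0.001 with the stress covariate and -0.022 to 0.012 without single arrays, Sgcd was -0.11 to 0.18, and Sspn was 0.003 with averaged probe sets and -0.095 to 0.050 without single arrays; these members have no fixed sign. The count of members higher at the unadjusted threshold was 5 as reported, with repeated quantile normalization and with averaged probe sets. It was 4 under the other alternatives that kept all arrays, and 3 to 4 without single arrays. Dtna was below that threshold in 3 of the 14 alternatives. Over all 22180 genes the count of genes higher at that threshold was 1269 as reported. It ran from 717 without scramble replicate 2 to 1731 without Htt siRNA replicate 2. Genes called over all genes numbered 0 as reported, 3 each with centred arrays, repeated quantile normalization and the filter on dim genes, 1 with array weights, 4 with the variance trend, 81 with the stress covariate and 0 to 540 without single arrays (540 without Htt siRNA replicate 2). After centring, 911 genes were higher and 1465 lower at the unadjusted threshold, against 1269 and 1140 as reported. With the replicate number as a block, 98 genes and Sgca (1.11, adjusted p = 0.0171) passed; deviations of same-numbered arrays correlated with r = 0.35, 0.36 and 0.01, so the numbers were not taken to pair the samples, and not every array correlated best with its own number. The causes of these shifts were not tested, and some fits also had fewer arrays. Dmd was not among the genes left by the filter on dim genes.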

Other observations

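The 3 arrays with the highest stress level (Htt siRNA replicates 1 and 3 and scramble replicate 1) were also the 3 highest for some related genes, which were chosen after their values were seen. Ank2, encoding ankyrin-B, which helps to place dystrophin at the membrane in mouse muscle, had 7.03, 5.22 and 6.80 with Htt siRNA and 6.0, 5.14 and 5.37 with scramble, a difference of 0.85 ± 0.46. The dystroglycan glycosylation genes B3galnt2 (7.29, 5.92 and 6.91 with Htt siRNA, 6.74, 6.10 and 6.25 with scramble) and Gmppb (4.23, 3.56 and 4.48, against 4.35, 3.57 and 3.86) did so too. Of the 8 members, none had these same 3 arrays on top except Sntb1, at 7.23, 6.97 and 6.84 in them and 6.77, 6.27 and 6.55 in the other arrays. Cavin4 and Mark2, among the related genes, had them on top too. The share of all genes with these 3 arrays on top was not counted, so the pattern sets none of these genes apart.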
